A study of Homo sapiens with 6 samples.

Results

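Genes for surface ligands and an enzyme with which tumour cells restrain immune cells were followed in H226 cells treated with an oligonucleotide against the long noncoding RNA *SWINGN* (LINC00565). They were *CD274*, *PDCD1LG2*, *CD276*, *CD47*, *PVR* and *NT5E*, taken by name, and all 6 were found among the 17222 gene names of the count table. The study names H226 as lung squamous carcinoma cells, and this line has long been kept in culture. It was transiently transfected with a control antisense oligonucleotide (ASO_CTRL) or with ASO_LINC#3, directed against *SWINGN*, and RNA was collected 48 h later from 3 libraries of each condition. Only 1 oligonucleotide against *SWINGN* was sequenced, and the level of *SWINGN* was not analysed here. The methods of the study describe its replicates in general as biological, the labels do not say what separated these libraries, and the p-values measure the spread between them.

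The proteins of these genes act at the cell surface. PD-L1, encoded by *CD274*, and PD-L2, encoded by *PDCD1LG2*, bind the receptor PD-1 and dampen activated T cells. B7-H3, encoded by *CD276*, belongs to the same B7 family, and its receptor on T cells is not settled. CD47 binds SIRP-alpha on macrophages and signals against phagocytosis. The poliovirus receptor, encoded by *PVR*, is a nectin-like protein bound by the inhibitory receptor TIGIT and by the activating receptor CD226 of T and natural killer cells. *NT5E* encodes CD73, which converts extracellular AMP into adenosine, a suppressor of T cells. In tumour cells, interferon gamma signalling through JAK kinases to the factor IRF1 is the best known inducer of *CD274*, and NF-kB, AP-1 and hypoxia-inducible factors also act on it.

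Between 3686828 and 10546786 reads per library were counted on genes, with the fewest in ASO_LINC#3 replicate 3. Levels are given as CPM, read counts scaled to a common library total after TMM normalization. The thresholds for calling a gene were 0.5 for the log2 fold change in either direction and 0.01 for the p-value of edgeR's quasi-likelihood F-test, adjusted by the Benjamini-Hochberg method over the 14660 genes that passed a filter on low counts. Of 13 markers of squamous epithelium 4 were in the table, among which *KRT5* and *DSC3* stood at 103 ± 12.3 and 42.5 ± 3.94 CPM (SD, n = 3) in the control libraries, whereas *TP63*, *SOX2*, *KRT14* and *DSG3* were not among the names analysed here. All 7 markers of mesothelium on the list were present, led by *CALB2* at 601 ± 91.7 CPM. These markers were chosen after their values were seen, so they do not settle the cell type. The cells are called H226 throughout. Of 28 receptors and markers of lymphoid and myeloid cells, 6 were in the table, with a summed level from 10.5 to 12.8 CPM in ASO_CTRL and from 16.2 to 21.7 CPM in ASO_LINC#3. *PTPRC*, the common leukocyte marker, was not one of them.

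All 6 ligand genes had a higher mean level in ASO_LINC#3, and *CD274*, *NT5E* and *CD276* were called. Thus 3 of 6 were called higher and 0 lower, where 4.91% of all tested genes were called higher and 2.63% lower. In all 6 genes the 3 knockdown libraries lay above the 3 control libraries, against 18.7% of all tested genes. At an unadjusted p below 0.05 edgeR had 4 of the 6 higher and 0 lower, where 17.1% of all tested genes were higher and 15.3% lower. At the thresholds above DESeq2 called 4 of the 6 higher and 0 lower (6.57% and 4.32% of all tested genes), and limma-voom called 3 higher and 0 lower (5.26% and 3.02%). The median log2 fold change of the 6 was 0.72, beside −0.0027 over all tested genes. These 6 genes were chosen with earlier results of these data known, so the shares beside them are a description and not a test. The sign of each of the 6 and the absence of overlap were the same with 3 other scalings of the libraries.

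**Figure D1:**
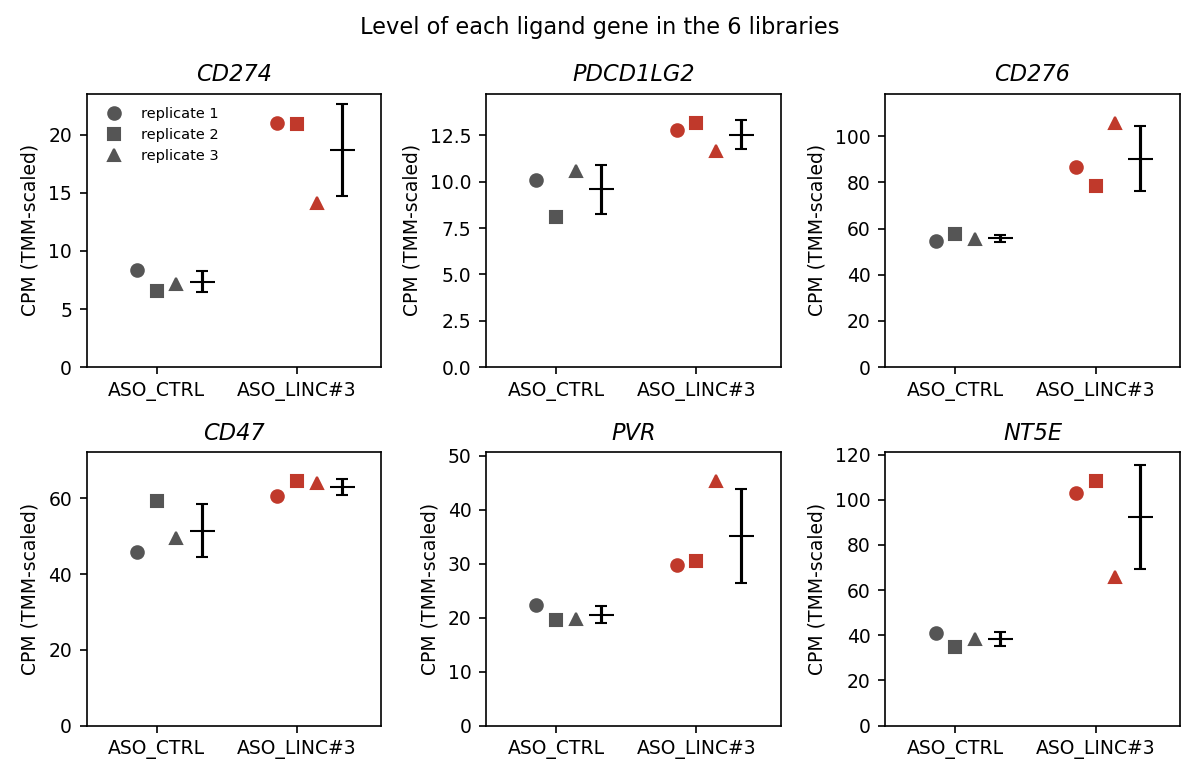
Level of each ligand gene (CPM, y axis from 0) in the libraries of ASO_CTRL and ASO_LINC#3, with 1 symbol per library and the mean ± SD (n = 3) beside them. In *CD274* and *NT5E* ASO_LINC#3 replicate 3 is the lowest knockdown library, at 14.1 and 65.9 CPM, and in *CD276* and *PVR* it is the highest, at 106 and 45.3 CPM.

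*CD274*, on the plus strand of chromosome 9 of GRCh37 from 5450503 to 5470566, showed the largest change of the 6. It was counted with 62, 38 and 75 reads in the ASO_CTRL libraries and with 143, 122 and 52 reads in the ASO_LINC#3 libraries. Scaled for depth, these were 8.35, 6.54 and 7.15 CPM in the controls and 21.0, 20.9 and 14.1 CPM after knockdown. The lowest knockdown library was well above the highest control, although replicate 3 of the knockdown was closer to the controls than the others. The mean rose from 7.35 ± 0.92 to 18.7 ± 3.96 CPM (SD, n = 3), a 2.56-fold increase with a 95% interval from 1.86 to 3.53. Its log2 fold change was 1.36 (standard error, SE, 0.21, edgeR adjusted p = 0.00182), and 2.54% of the tested genes had a higher one. The call was lost without ASO_CTRL replicate 2, ASO_CTRL replicate 3 or ASO_LINC#3 replicate 1, with edgeR adjusted p-values of 0.0113, 0.0169 and 0.0138.

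Since *CD274* had the largest change, its proximal promoter is shown, from 250 bases before the RefSeq start up to the start of the gene in GENCODE, on the plus strand of GRCh37 at chr9:5450292-5450502. Capitals mark matches to 6 motifs searched on both strands. They were the interferon regulatory factor core GAAANNGAA, the STAT palindrome TTCNNNGAA, the AP-1 site TGANTCA, the cyclic AMP response core TGACGT, the hypoxia response core ACGTG and the TATA box TATAAA.
CD274: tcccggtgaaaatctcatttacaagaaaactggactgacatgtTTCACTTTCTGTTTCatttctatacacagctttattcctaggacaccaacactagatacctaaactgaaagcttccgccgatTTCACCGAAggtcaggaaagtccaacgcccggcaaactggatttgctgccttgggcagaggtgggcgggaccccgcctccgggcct

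The first run of capitals holds 2 overlapping matches to the interferon regulatory factor core, both on the minus strand, at bases 44 to 52 and 50 to 58 counted from the left end. The second run is 1 match to the STAT palindrome at bases 126 to 134. Among 35116 RefSeq promoter windows of 250 bases, 6.88% held the former motif and 6.57% the latter. No other ligand gene with a window in the RefSeq table (*NT5E*, *CD276*, *CD47* and *PVR*) held either of them, and none of the 5 genes held the AP-1 site or the TATA box, found in 6.57% and 10.7% of windows. *PDCD1LG2* had no entry. A match is a description of the letters and not of binding.

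*PDCD1LG2* follows on the same strand from 5510531 to 5571282, 39964 bases after the end of *CD274*. Its read counts were 75, 47 and 111 in ASO_CTRL and 87, 77 and 43 in ASO_LINC#3. In CPM these were 10.1, 8.09 and 10.6 in the controls and 12.8, 13.2 and 11.7 after knockdown, so the conditions did not overlap but lay close together. The log2 fold change of 0.38 (SE 0.19, edgeR adjusted p = 0.187) was not past the thresholds. Its 95% interval ran from −0.03 to 0.79, which leaves room for no change and for a 1.73-fold increase.

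The ratio of *CD274* to *PDCD1LG2* within a library needs no scaling between libraries. The log2 ratio of read counts was −0.27, −0.31 and −0.57 in ASO_CTRL and 0.72, 0.66 and 0.27 in ASO_LINC#3. *PDCD1LG2* was thus counted more often than *CD274* in every control library and less often in every knockdown library. The mean difference was 0.93 on the log2 scale (exact permutation test, two-sided p = 0.1, the smallest that 3 libraries against 3 allow, and 0.2 after adjustment over the 2 ratios computed). For *NT5E* and *CD276*, the other pair compared, the log2 ratio was −0.41, −0.72 and −0.52 in ASO_CTRL and 0.25, 0.46 and −0.68 in ASO_LINC#3. Here ASO_LINC#3 replicate 3 lay within the range of the controls and the other knockdown libraries above it. The mean difference was 0.56, beside SDs of 0.16 in ASO_CTRL and 0.61 in ASO_LINC#3 (exact permutation test, two-sided p = 0.3).

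**Figure D2:**
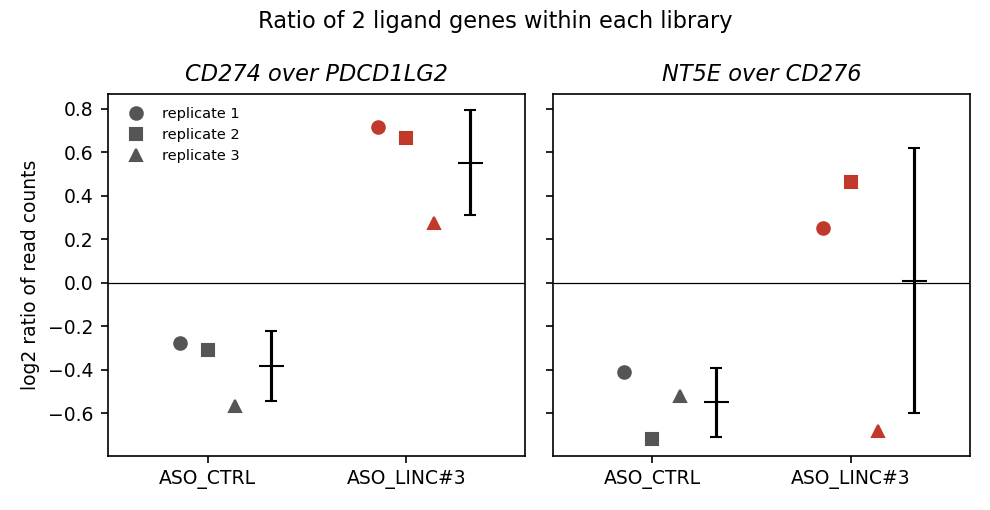
Within-library log2 ratio of read counts (y axis) of *CD274* over *PDCD1LG2* and of *NT5E* over *CD276*, with 1 symbol per library and the mean ± SD (n = 3). The first ratio changes sign between the conditions in all libraries, and in the second ASO_LINC#3 replicate 3, at −0.68, sits among the controls.

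*NT5E*, on the plus strand of chromosome 6 from 86159302 to 86205509, changed nearly as much as *CD274*. It had 305, 203 and 404 reads in ASO_CTRL and 701, 632 and 243 reads in ASO_LINC#3. The levels were 41.1, 34.9 and 38.5 CPM in the controls and 103, 108 and 65.9 CPM after knockdown. Every knockdown library exceeded all controls, with replicate 3 the lowest of them. The mean rose 2.43-fold (95% interval from 1.82 to 3.23), from 38.2 ± 3.09 to 92.4 ± 23.1 CPM (SD, n = 3). The log2 fold change was 1.28 (SE 0.19, edgeR adjusted p = 0.00133), and leaving out ASO_CTRL replicate 2 or replicate 3 moved the adjusted p-value to 0.0104 or 0.0121. Its window before the RefSeq start, which lies inside the gene as GENCODE draws it, held 1 match to the cyclic AMP response core, in capitals in these 30 bases of the plus strand at chr6:86159662-86159691, and 7.1% of all windows held one.
NT5E: ggtcggatcgggTGACGTcgcgaacttgcg

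*CD276*, on the plus strand of chromosome 15 from 73976307 to 74006855, rose less than *CD274* and *NT5E* but was called as well. Its read counts were 405, 334 and 580 in ASO_CTRL and 589, 459 and 390 in ASO_LINC#3. These corresponded to 54.5, 57.5 and 55.3 CPM in the controls and to 86.6, 78.5 and 106 CPM after knockdown, with replicate 3 the highest. The mean rose from 55.8 ± 1.52 to 90.3 ± 14 CPM (SD, n = 3), a 1.61-fold increase with a 95% interval from 1.30 to 2.01. The log2 fold change of 0.69 (SE 0.14, edgeR adjusted p = 0.00858) was just past the threshold. The call remained in 1 of the 6 fits that left out a library, that without ASO_LINC#3 replicate 3 (adjusted p = 0.00223), while the other 5 fits gave adjusted p-values from 0.0123 to 0.0497. Isoforms of *CD276* that differ in the number of immunoglobulin domains were counted together.

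*PVR*, on the plus strand of chromosome 19 from 45147098 to 45169430, was higher in every knockdown library but was not past the adjusted p-value. It had 166, 114 and 207 reads in ASO_CTRL and 202, 178 and 167 reads in ASO_LINC#3. The control levels of 22.4, 19.6 and 19.7 CPM compared with 29.7, 30.5 and 45.3 CPM after knockdown, where replicate 3 stood apart from the others. The log2 fold change was 0.76 (SE 0.19, edgeR adjusted p = 0.0196), with a 95% interval of the fold from 1.27 to 2.25. Without ASO_LINC#3 replicate 3 the log2 fold change fell to 0.55, yet the gene was called (adjusted p = 0.00917), and DESeq2 called it with all libraries (adjusted p = 0.00563). *CEACAM19* overlaps *PVR* on the same strand in the annotation used here. The deposited counts set reads labelled ambiguous, from 1.6% to 1.87% of each library, apart from the genes. Whether the annotation behind the counts held this overlap is not given in the sources used here. *CD274* and *PDCD1LG2* overlap an antisense transcript in the annotation used here, whose reads cannot be told apart unless the counting used strand.

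*CD47*, on the minus strand of chromosome 3 from 107761938 to 107810709, had the smallest difference. It was counted with 340, 344 and 519 reads in ASO_CTRL and with 412, 377 and 236 reads in ASO_LINC#3. The levels were 45.8, 59.2 and 49.5 CPM in the controls and 60.6, 64.5 and 64.0 CPM after knockdown, and the gap between ASO_CTRL replicate 2 and the lowest knockdown library was narrow. Its log2 fold change of 0.29 (SE 0.14, edgeR adjusted p = 0.177) was not past the thresholds, and the 95% interval of the fold ran from 0.99 to 1.52.

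Levels of different genes were compared as CPM per kb of the canonical transcript of each gene. In ASO_CTRL the order was *CD276* at 16.9 ± 0.46 CPM per kb (SD, n = 3), *NT5E* at 10.7 ± 0.87, *CD47* at 9.73 ± 1.31, *PDCD1LG2* at 3.94 ± 0.55, *PVR* at 3.55 ± 0.27 and *CD274* at 2.02 ± 0.25. The ranges of *NT5E* and *CD47* overlapped, as did those of *PDCD1LG2* and *PVR*, and the other neighbours in this order did not. In ASO_LINC#3 the level of *NT5E*, 25.9 ± 6.48 CPM per kb, overlapped that of *CD276*, 27.4 ± 4.24, and lay apart from that of *CD47*, 11.9 ± 0.41. *CD274* was the lowest gene in every control library, and after knockdown, at 5.14 ± 1.09 CPM per kb, its range overlapped those of *PDCD1LG2* at 5.16 ± 0.32 and *PVR* at 6.07 ± 1.52. First strands were primed with oligo-dT, and no correction for the position of reads along a transcript was made.

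ASO_LINC#3 replicate 3 differed from the other knockdown libraries in opposite ways for different ligand genes. The log2 change from the control mean in the knockdown libraries was 1.49, 1.48 and 0.92 for *CD274* and 1.43, 1.5 and 0.79 for *NT5E*, so replicate 3 was lowest. It was 0.63, 0.49 and 0.92 for *CD276* and 0.53, 0.56 and 1.13 for *PVR*, so replicate 3 was highest. The GC content of the canonical transcript was 40.7% in *CD274* and 42.5% in *NT5E*, and 60.0% in *CD276* and 52.1% in *PVR*. *PDCD1LG2*, at 41.7%, had changes of 0.41, 0.46 and 0.28, with replicate 3 lowest. *CD47* had the lowest GC content, 37.1%, and its changes were 0.24, 0.33 and 0.32, so replicate 3 lay between the others. Over all tested genes with known GC content, the median log2 change of genes with a GC content of at least 56.5% minus that of genes with at most 42.1% was −0.39 and −0.46 in replicates 1 and 2 and 0.41 in replicate 3, so the libraries of the knockdown differed along GC content.

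With the trends of every library on GC content and transcript length removed, a setting chosen after seeing the data, the changes of *CD276* were 0.72, 0.64 and 0.66. Those of *CD274* were 1.31, 1.27 and 1.09, and those of *NT5E* were 1.29, 1.34 and 0.94. *PVR* kept its gap, with 0.48, 0.54 and 1.05. For *CD47*, whose transcript has a GC content of 37.1%, replicates 1 and 2 came to 0.0014 and 0.04 and replicate 3 to 0.47. In this fit *CD274*, *NT5E* and *CD276* were called (edgeR adjusted p-values of 0.000332, 7.85e-05 and 0.000969), and the log2 fold change of *CD47* was 0.17 (adjusted p = 0.434). The correction also takes out any true difference between the conditions that follows GC content or length.

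**Figure D3:**
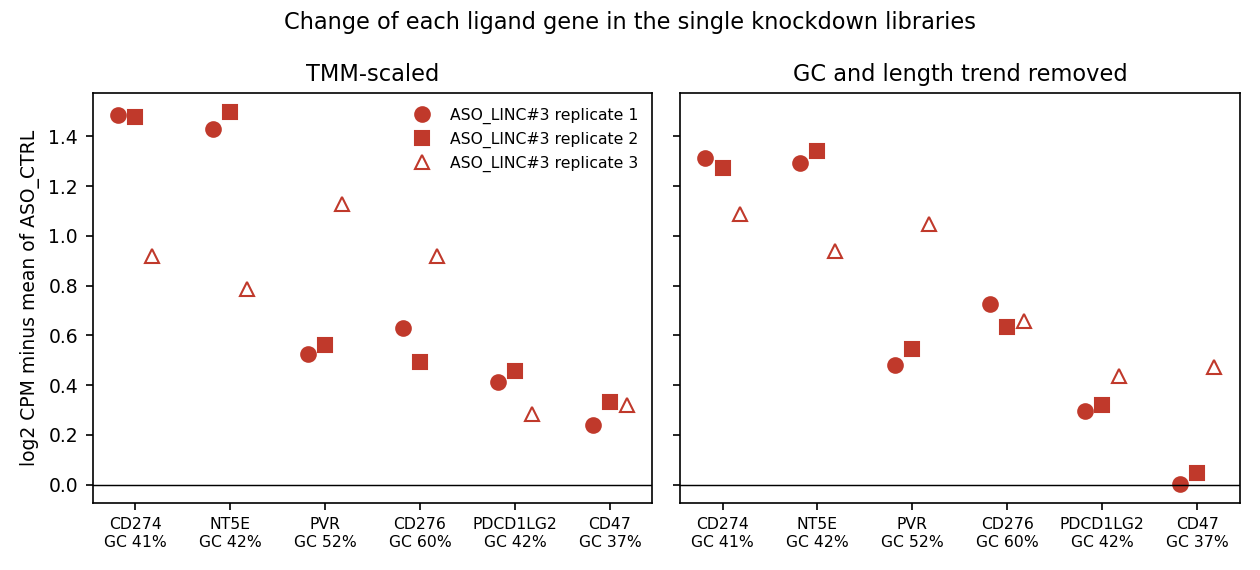
Log2 CPM of each ligand gene minus the mean of ASO_CTRL (y axis) in the 3 knockdown libraries, before (left) and after (right) removal of the trends of every library on GC content and transcript length, with the GC content of the transcript under each gene. The open triangles of ASO_LINC#3 replicate 3 lie below the others in *CD274* and *NT5E* and above them in *CD276* and *PVR* on the left, and in *CD276* the 3 libraries come together on the right.

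**Figure D4:**
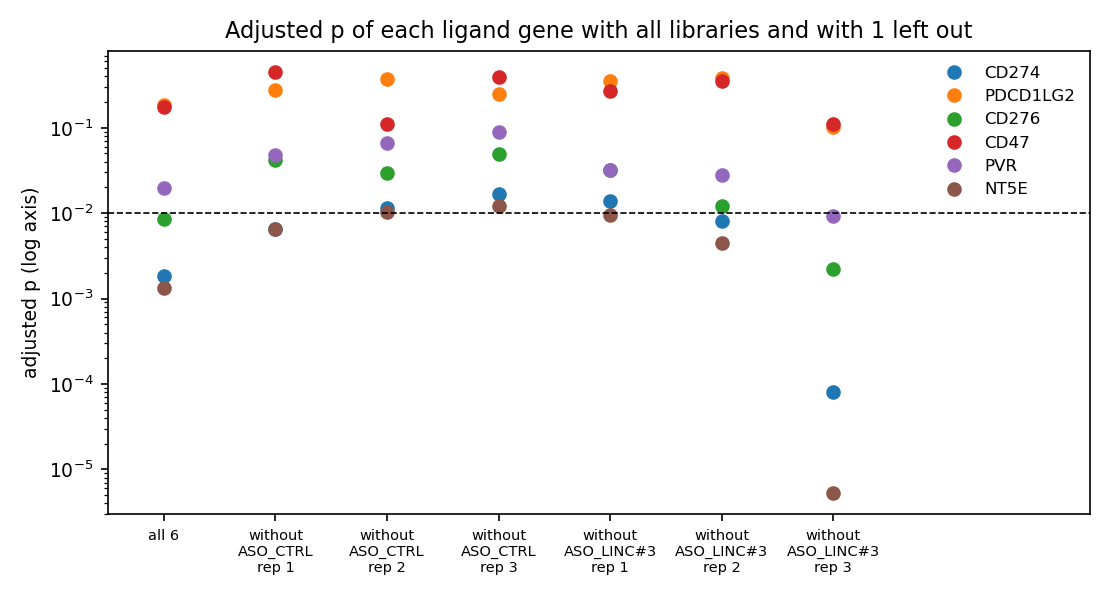
Adjusted p of each ligand gene (y axis, log scale) in the fit of all 6 libraries and in 6 fits without 1 library each, with the threshold of 0.01 as a dashed line. Without ASO_LINC#3 replicate 3 the values are the smallest for all 6 genes except *CD47* (0.112) and *PVR* is past the threshold (0.00917), while without ASO_CTRL replicate 2 or 3 no ligand gene is past it.

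The profile of each ligand gene over the 6 libraries was compared with those of the 10220 other genes whose mean count was 50 or more, by the root mean square difference of log2 CPM relative to the control mean. *CD274* and *NT5E* were each other's nearest gene, at a difference of 0.07 on the log2 scale. After the correction for GC content and length, *NT5E* ranked 2 for *CD274* and *CD274* ranked 5 for *NT5E*. The next gene for *CD274* was *TNFAIP3*, an NF-kB target that restrains NF-kB signalling, with a log2 fold change of 1.38 (adjusted p = 0.000248), and for *NT5E* it was *TNFAIP8*, at 1.17 (adjusted p = 0.00239). *CD276* was nearest to the receptor tyrosine kinase gene *EPHA2*, at 0.66 (adjusted p = 0.0061), and to *NUDCD3*. *PVR* was nearest to *ATF4*, a transcription factor of the integrated stress response, at 0.72 (adjusted p = 0.015), and to *ALS2CL*. *PDCD1LG2* was nearest to *CCNK* and *SKA1*, and *CD47* to *PWP1* and *PLCXD1*, none of which was called.

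Other ligands of immune receptors were looked up from a list of B7, butyrophilin, nectin, tumour necrosis factor and stress ligand genes, of which 27 were tested. In this list 5 genes rose and 1 fell, with a median log2 fold change of 0.22, where 4.91% of all tested genes were called higher and 2.63% lower. At an unadjusted p below 0.05 edgeR had 11 higher and 2 lower (17.1% and 15.3% of all tested genes). DESeq2 called 6 higher and 1 lower (6.57% and 4.32%), and limma-voom called 5 higher and 1 lower (5.26% and 3.02%). *CEACAM1*, a homophilic adhesion receptor with inhibitory signalling, rose by 2.16 on the log2 scale (SE 0.20, edgeR adjusted p = 8.17e-05), with 3.75 ± 0.50 CPM in ASO_CTRL and 16.7 ± 0.91 CPM in ASO_LINC#3 (SD, n = 3), and kept its call when each library was left out. *CD70*, the ligand of CD27, rose by 1.57 (adjusted p = 0.00149) and kept its call likewise. *TNFSF9*, the ligand of the costimulatory receptor 4-1BB, rose by 1.35 (adjusted p = 0.00602), *ULBP2*, a ligand of the natural killer cell receptor NKG2D, by 1.26 (adjusted p = 0.00887) and *PVRL4*, which encodes nectin-4, by 1.99 from 1.07 ± 0.36 CPM (adjusted p = 0.00658). These 3 lost their calls in 4 or 5 of the 6 fits that left out a library, with adjusted p-values of up to 0.0458. *ICOSLG*, the B7 ligand of the costimulatory receptor ICOS, fell by 0.91 (adjusted p = 0.00188), from 55.3 ± 3.13 to 29.5 ± 3.17 CPM, and lost its call without ASO_CTRL replicate 2 or 3 or ASO_LINC#3 replicate 2 (adjusted p of up to 0.0177). *PVRL2*, which encodes nectin-2 and shares TIGIT and CD226 with *PVR*, had 159 ± 5.81 CPM in ASO_CTRL and 130 ± 5.78 CPM in ASO_LINC#3, a log2 fold change of −0.29 (adjusted p = 0.109). *HLA-E*, whose product engages the inhibitory receptor NKG2A, had a log2 fold change of 0.45 (adjusted p = 0.0352). Reads of *HLA-E*, *ULBP2* and *CEACAM1* may be shared with close relatives in their families.

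Of the genes for extracellular ATP and adenosine, the pathway of *NT5E*, 11 were tested, with a median of 0.41. By edgeR 2 of them rose and 0 fell (4.91% and 2.63% of all tested genes). At an unadjusted p below 0.05 edgeR had 6 higher and 0 lower (17.1% and 15.3% of all tested genes). DESeq2 called 3 and limma-voom 2, all of them higher, where 6.57% and 5.26% of all tested genes were called higher. *PANX1*, a channel that releases ATP, rose by 0.78 on the log2 scale (edgeR adjusted p = 0.00767), with 25 ± 3.42 CPM in ASO_CTRL and 42.6 ± 4.47 CPM in ASO_LINC#3 (SD, n = 3). *P2RX7*, an ATP-gated channel, had 1.75 ± 0.18 CPM in ASO_CTRL and 4.24 ± 0.12 CPM in ASO_LINC#3, a log2 fold change of 1.25 (adjusted p = 0.0096). Both kept their call only in the fit without ASO_LINC#3 replicate 3, with adjusted p-values of up to 0.0509 in the others. The adenosine receptor gene *ADORA2B* had 23.3 ± 3.09 and 36.8 ± 2.57 CPM, a log2 fold change of 0.66 (adjusted p = 0.0151). *ENTPD1*, which encodes the CD39 enzyme that supplies AMP to CD73, was not among the names analysed here.

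Among 41 tested genes that act on the *CD274* product or its transcription, 7 rose and 0 fell, with a median of 0.11. Of all tested genes edgeR called 4.91% higher and 2.63% lower. At an unadjusted p below 0.05 edgeR had 14 higher and 5 lower, where 17.1% of all tested genes were higher and 15.3% lower. DESeq2 called 9 and limma-voom 7, all higher, with 6.57% and 5.26% of all tested genes called higher by these tools. The largest changes were in AP-1 subunits. *FOS*, counted with 7, 14 and 23 reads in ASO_CTRL and 111, 114 and 75 in ASO_LINC#3, rose by 3.32 (edgeR adjusted p = 5.37e-05). *FOSL1* rose by 1.69 (adjusted p = 0.000198) and *JUNB* by 1.59 (adjusted p = 5.37e-05), and these 3 genes kept their calls when each library was left out. *JUN* rose by 0.65 (adjusted p = 0.00467), the NF-kB subunit gene *NFKB2* by 1.14 (adjusted p = 0.00526) and the kinase gene *JAK1* by 0.72 (adjusted p = 0.0044), each called in only 1 or 2 of those fits. The interferon-responsive gene *IRF1* was not called, with 26.7 ± 3.97 and 31.7 ± 3.74 CPM (SD, n = 3), a log2 fold change of 0.24 (adjusted p = 0.34). *CMTM6*, whose product keeps PD-L1 from degradation, had 22.1 ± 5.71 and 41.5 ± 6.43 CPM, a log2 fold change of 0.92 (adjusted p = 0.0129).

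In the wider neighbourhood of *CD274* on chromosome 9, 15 genes of the list were tested, with a median of 0.11. Of these 0 were called by edgeR, DESeq2 or limma-voom. Of all tested genes edgeR called 4.91% higher and 2.63% lower, DESeq2 6.57% and 4.32%, and limma-voom 5.26% and 3.02%. At an unadjusted p below 0.05 edgeR had 1 of the 15 higher and 0 lower (17.1% and 15.3% of all tested genes). It was *UHRF2*, a ubiquitin ligase gene named here for that reason, with a log2 fold change of 1.02 (adjusted p = 0.0217). *JAK2*, the kinase gene of this region, was below the filter on low counts, with 1, 4 and 2 reads in ASO_CTRL and 12, 19 and 3 reads in ASO_LINC#3. Of 14 tested partners and regulators of CD47 and *PVR*, 3 rose and 0 fell (4.91% and 2.63% of all tested genes), with a median of 0.13. At an unadjusted p below 0.05 edgeR had 6 higher and 2 lower (17.1% and 15.3% of all tested genes), DESeq2 called 4 higher and 1 lower (6.57% and 4.32%), and limma-voom called 3 higher (5.26%). The 3 that rose were *ITGA2* at 3.14 (edgeR adjusted p = 3.78e-06), *QPCT*, a glutaminyl cyclase gene, at 1.99 (adjusted p = 0.0014), and *HMGA2*, a chromatin protein gene counted with 5, 1 and 2 reads in ASO_CTRL and 47, 58 and 26 reads in ASO_LINC#3 (adjusted p = 9.12e-05). *QPCTL*, the cyclase that modifies CD47 for SIRP-alpha binding, had 2.20 ± 0.51 and 2.14 ± 0.81 CPM (SD, n = 3), a log2 fold change of −0.08 (adjusted p = 0.902).

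**Figure D5:**
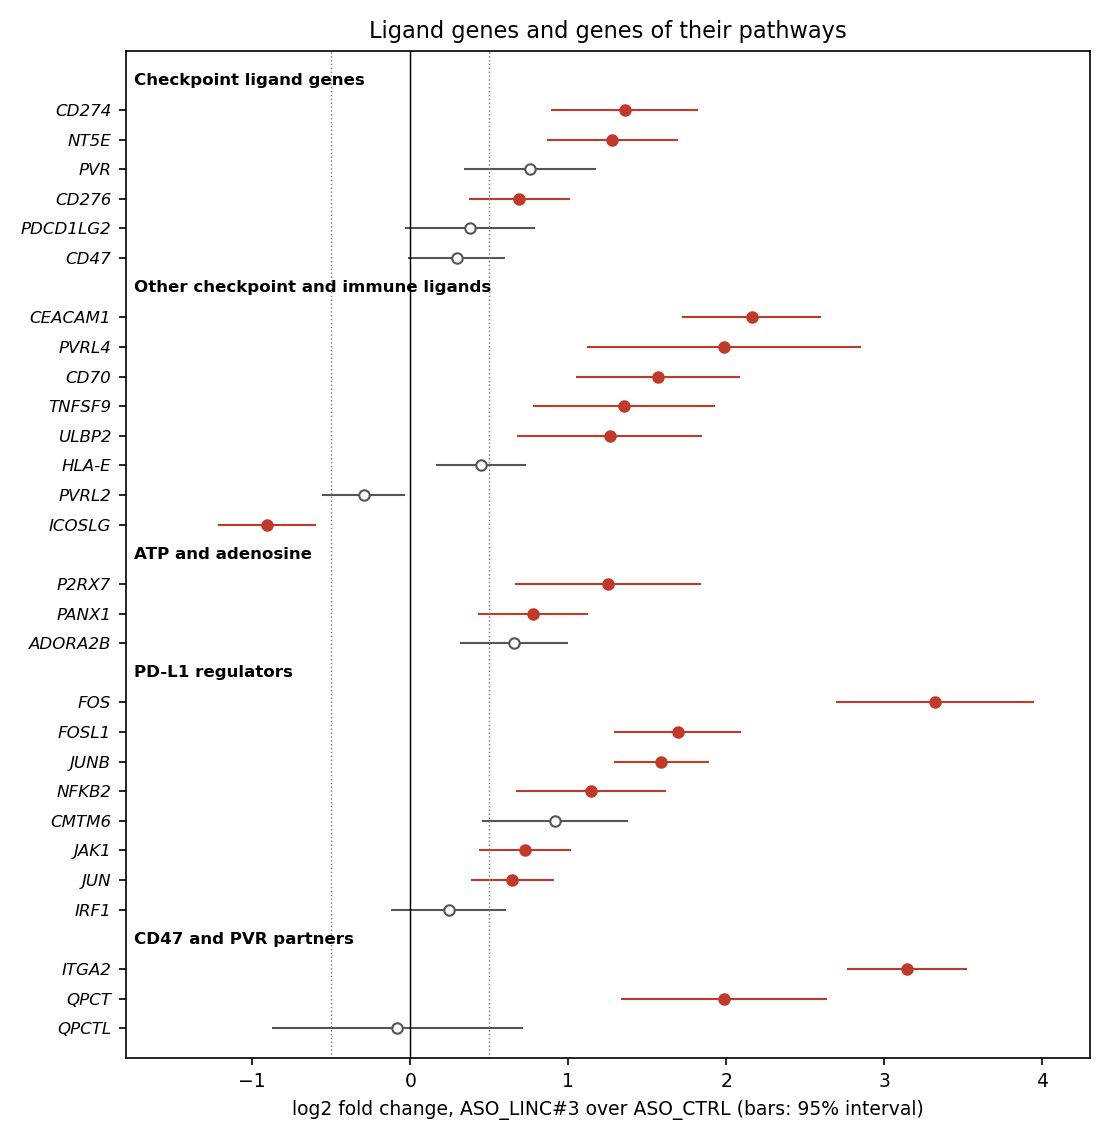
Log2 fold change of ASO_LINC#3 over ASO_CTRL (x axis, bars give the 95% interval) for the ligand genes and genes of their pathways, with called genes filled in red, genes not called as open circles and dotted lines at the fold bound of 0.5. Among the 6 ligand genes at the top *CD274*, *NT5E* and *CD276* are filled, and of the genes drawn *FOS* at 3.32 and *ITGA2* at 3.14 lie farthest to the right. *FOS* had 7, 14 and 23 reads in the controls, and *HMGA2*, with 5, 1 and 2 reads in the controls, is not drawn.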

How the data were processed

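RNA of H226 cells was sequenced as single reads of 75 bp. The authors aligned the reads to hg19 with STAR and deposited raw counts per gene name, without normalization or pooling. The counting tool, annotation and strand setting are not given in the sources used here. Sample labels name H226, although the sequencing methods of the study mention BJ cells. Rows of reads on no gene (24.8% to 28.1% of each library) were left out.

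The whole table was tested in R 4.3.3 with edgeR 4.0.16 (filterByExpr, TMM, quasi-likelihood F-test, Benjamini-Hochberg adjustment over 14660 genes), with the thresholds of the study's methods. Log2 CPM used a prior count of 2. Intervals are 95% intervals from the fitted standard error. Library pairs of a condition differed by more than sampling noise (chi-square per degree of freedom from 2.63 to 15.6). The script was checked on simulated counts.

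Gene positions, transcript lengths and GC content were taken from GENCODE v44 lifted to GRCh37, matched for 86.6% of tested genes. Promoters came from RefSeq (GRCh38.p14), placed on GRCh37 by exact match.

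The ligand genes and lists were chosen with earlier results of these data known. Named were the ligand genes, called genes of each list (the 6 with the smallest p where there were more), 9 partners fixed by name (1 of them is not reported here), and the 2 genes nearest to each ligand gene. Alternatives were DESeq2 1.42.0, limma-voom (limma 3.58.1), other scalings, filters and thresholds, glmTreat, robust dispersion, a replicate block and leaving out each library. The correction for GC content and length (splines of 5 degrees of freedom) was added after seeing the data.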

Additional observations from a re-analysis of the deposited data

How the results depend on the processing

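All 6 ligand genes kept a positive log2 fold change under every alternative run. The number called was 3 with all libraries under other scalings, filters, limma-voom, robust dispersion and the GC and length correction, 4 with DESeq2 or an adjusted p of 0.05, and 1 with glmTreat, which tests against the fold bound itself. Under glmTreat *CD274* (log2 fold change 1.36, adjusted p = 0.0113) and *CD276* (0.69, adjusted p = 0.28) were not called. *PVR* was called with DESeq2 at 0.76 and at an adjusted p of 0.05 at 0.76. With the replicate number as a replicate block *CD276* lost its call (0.68, adjusted p = 0.0268) and 2 ligand genes were called. The deviations of same-numbered libraries from their group means correlated at 0.06, −0.15 and −0.18. With 3 libraries per condition these values cannot decide whether the numbers mark pairs, and the labels do not say. The block left both ratios as they were.

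Leaving out each library gave from 0 to 4 called ligand genes, with 0 without ASO_CTRL replicate 2 or 3, 1 without ASO_LINC#3 replicate 1 and 4 without ASO_LINC#3 replicate 3. Log2 fold changes ran from 1.26 to 1.51 for *CD274*, 0.57 to 0.78 for *CD276*, 0.55 to 0.87 for *PVR*, 1.15 to 1.46 for *NT5E*, 0.29 to 0.46 for *PDCD1LG2* and 0.22 to 0.41 for *CD47*. The ratio of *CD274* to *PDCD1LG2* differed by 0.84 to 1.07 and that of *NT5E* to *CD276* by 0.33 to 0.91. These fits have fewer samples. Over all genes 1106 were called, 384 with glmTreat, 2465 at an adjusted p of 0.05, 656 with the block, 1745 after the GC and length correction and from 359 to 2616 without 1 library. With the correction and without ASO_LINC#3 replicate 3, 2340 genes were called, *CD274*, *CD276* and *NT5E* among them, and *CD47* was at 0.02. *CD274* rests on 38 to 143 reads per library, which limits its precision.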

Other observations

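Of the lymphoid and myeloid markers, *CD3D* encodes a CD3 chain of the T cell receptor complex. It was counted with 1, 0 and 1 reads in ASO_CTRL and with 16, 11 and 6 reads in ASO_LINC#3 (edgeR adjusted p = 0.000942). *CD3D* lost its call without ASO_CTRL replicate 3 or ASO_LINC#3 replicate 1 (adjusted p of up to 0.0125). The macrophage marker *CD68* had 8, 11 and 12 reads in the controls and 19, 18 and 24 reads after knockdown (adjusted p = 0.0265). *CD14*, a monocyte marker, had 11, 10 and 22 against 5, 9 and 8 reads (adjusted p = 0.564), and the integrin gene *ITGAX* had 51, 27 and 62 against 57, 62 and 35 reads, a log2 fold change of 0.69 (adjusted p = 0.053). *LAG3*, with 15, 7 and 16 against 7, 14 and 4 reads, and *ITGAM*, with 9, 6 and 6 against 6, 13 and 3 reads, were below the filter on low counts. *CD3E*, *CD3G*, *CD4*, *CD8A* and *PDCD1* were not among the names analysed here. The marker genes named here and the squamous and mesothelial markers were chosen after their values were seen.

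Of the 7 mesothelial markers tested, 2 were called lower and 0 higher, where 2.63% of all tested genes were called lower and 4.91% higher. *CALB2*, which encodes the calcium-binding protein calretinin, fell by 1.97 on the log2 scale (edgeR adjusted p = 0.000195), with 601 ± 91.7 CPM in ASO_CTRL and 154 ± 47.6 CPM in ASO_LINC#3 (SD, n = 3). *LRRN4* fell by 1.58 (adjusted p = 3.3e-05), with 143 ± 2.70 and 47.6 ± 3.18 CPM. The median of the list was −0.77, and both genes kept their calls when each library was left out. By edgeR 0 of the list were higher at an unadjusted p below 0.05 and 5 were lower (17.1% and 15.3% of all tested genes). DESeq2 called 0 higher and 4 lower (6.57% and 4.32%), and limma-voom called 0 higher and 4 lower (5.26% and 3.02%). *MSLN*, which encodes mesothelin, had 29.1 ± 2.05 and 31.1 ± 16.5 CPM, a log2 fold change of 0.06 (adjusted p = 0.91), and *WT1* was at −0.32 (adjusted p = 0.212). Markers of other cell types moved as well. Of 6 tested mesenchymal markers *COL1A1* fell by 1.36, *COL3A1* by 1.58 and *PDGFRB* by 1.53, and *VIM* rose by 0.83 (edgeR adjusted p = 0.000330, 0.00261, 0.000305 and 0.00363). The squamous marker *DSC3* fell by 0.88 and the endothelial marker *KDR* by 1.29 (adjusted p = 0.00571 for both). The calls of *COL1A1* and *PDGFRB* held without each library, and those of *COL3A1*, *DSC3*, *VIM* and *KDR* in 3, 2, 1 and 1 of the 6 fits. The simple keratin genes *KRT7*, *KRT8*, *KRT18* and *KRT19* had log2 fold changes from −0.46 to −0.33 and were not called. Their log2 changes from the control mean ran from −0.82 to −0.53 in ASO_LINC#3 replicates 1 and 2, and from −0.02 to 0.08 in replicate 3. The part of these markers in the results on the ligand genes was not tested. In bulk samples fewer cells of a type and less RNA per cell cannot be told apart.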
